A study of Homo sapiens with 8 samples.

Results

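The binding sites of the histone demethylase KDM2A were set against the chromatin regions that carry its substrate, dimethylated lysine 36 of histone H3 (H3K36me2), in control neural progenitor cells. The members are the peaks of the control KDM2A list and the regions of the control H3K36me2 list on chromosomes 1 to 22, which came to 475699 of 504724 KDM2A peaks and 19017 of 19691 H3K36me2 regions. Each KDM2A peak was classed by its midpoint as inside an H3K36me2 region, within 5 kb outside one, or farther away. The series holds 8 ChIP-seq libraries, of which 4 are used here, an immunoprecipitate and its input for each antibody. The cells derive from H9, an established line of human embryonic stem cells, and all groups of the series received a lentivirus and puromycin selection at the stem cell stage. The 2 lists used here come from cells given the control virus labelled NC, and the lists from cells with hairpins against KDM2A were not used. The cell type in the labels is neural progenitor cells, which peak lists without expression values cannot check. Each list rests on 1 library, so no value below has a replicate error, and no test was made. Intervals are 95% exact intervals that cover counting error only.

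KDM2A is a JmjC-domain enzyme that removes methyl groups from mono- and dimethylated H3K36. Its CXXC zinc finger binds unmethylated CpG, which concentrates the protein at CpG islands, where H3K36me2 is usually low. H3K36me2 is laid down by NSD1, NSD2, NSD3 and ASH1L as broad domains over gene bodies and the sequence between genes, and the PWWP domain of the DNA methyltransferase DNMT3A reads it. A demethylase and its substrate can therefore be mapped to the same place or to different places, and the lists allow the positions to be compared.

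The sequences just before gene starts show where KDM2A midpoints fell there. Each run below is the 250 bases before the start in RefSeq on GRCh38.p14, 5′ to 3′ on the strand of the gene, with every CpG, the dinucleotide bound by the CXXC finger, in capitals. In the first 3, the midpoint of a KDM2A peak fell in these 250 bases and the start lay in an H3K36me2 region. In the last, a KDM2A midpoint fell in the 250 bases far from any region. They were chosen after their values were seen, from 6 starts of the first kind and 19 of the other kind (KDM2A FDR under 0.05), the first 3 for their high or low CpG number and the last for its fold, which was the second highest of the 19. The start of highest fold, that of CTAGE15 (4.84), had 16 CpG and is not printed.
ST8SIA4 (chr5:100903283-100903532, minus strand): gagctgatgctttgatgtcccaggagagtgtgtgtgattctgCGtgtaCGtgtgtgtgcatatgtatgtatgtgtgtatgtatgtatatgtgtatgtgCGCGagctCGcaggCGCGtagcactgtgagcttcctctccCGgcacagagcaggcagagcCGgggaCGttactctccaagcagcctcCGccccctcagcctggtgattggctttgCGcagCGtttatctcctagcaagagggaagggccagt
STEAP4 (chr7:88306895-88307144, minus strand): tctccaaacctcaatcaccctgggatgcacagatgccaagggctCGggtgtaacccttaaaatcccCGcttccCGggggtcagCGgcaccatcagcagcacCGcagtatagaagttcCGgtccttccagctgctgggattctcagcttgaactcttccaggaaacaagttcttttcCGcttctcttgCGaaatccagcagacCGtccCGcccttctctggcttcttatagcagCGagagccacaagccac
PPP1R3A (chr7:113919010-113919259, minus strand): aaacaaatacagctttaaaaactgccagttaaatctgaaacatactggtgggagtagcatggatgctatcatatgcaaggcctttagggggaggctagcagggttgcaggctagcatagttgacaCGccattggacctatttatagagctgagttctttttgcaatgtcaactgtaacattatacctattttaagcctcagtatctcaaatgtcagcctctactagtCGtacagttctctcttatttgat
KCNH5 (chr14:63045459-63045708, minus strand): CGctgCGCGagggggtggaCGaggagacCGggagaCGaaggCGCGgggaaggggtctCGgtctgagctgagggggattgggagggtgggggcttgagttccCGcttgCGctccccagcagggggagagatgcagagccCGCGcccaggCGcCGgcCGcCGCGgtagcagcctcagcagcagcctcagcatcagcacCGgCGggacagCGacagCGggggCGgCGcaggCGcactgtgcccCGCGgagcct

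The start of ST8SIA4, a polysialyltransferase that modifies the neural cell adhesion molecule, had 13 CpG in these 250 bases. Its KDM2A peak had a deposited fold over input of 2.64, a Pileup (the number of overlapping fragments at the peak) of 10 and an FDR of 0.273. It lay in an H3K36me2 region of 3000 bp with a fold of 1.59 that held 4 KDM2A peaks in all. STEAP4, a metalloreductase, had 11 CpG and a KDM2A peak of fold 3.15 and FDR 0.145 in a region of 6800 bp. PPP1R3A, a regulatory subunit of protein phosphatase 1 in glycogen metabolism, had 2 CpG and a KDM2A peak of fold 2.85 and FDR 0.186 in a region of 6600 bp. KCNH5, a voltage-gated potassium channel, had 27 CpG and no H3K36me2 region within 5 kb. Its KDM2A peak had fold 4.10, Pileup 12 and FDR 0.0059. Over the 6 starts of the first kind the CpG number ran from 2 to 13 with a median of 8.5. The 27 CpG of KCNH5 and the 16 of CTAGE15 both lay above that range, and since these starts were chosen with values in view this is a description of them alone. The FDR rule also differed, since the peaks at the 6 starts had FDRs from 0.145 to 0.630. The wider set of 45 starts with both, described below, had an upper quartile of 20 CpG.

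KDM2A peaks were found inside H3K36me2 regions and, far more often, outside them. Inside lay 20069 peaks, 4.22% of all (4.16% to 4.28%), in regions that made up 3.57% of the measured length of 2753.7 Mb. Within 5 kb outside lay 26829 peaks, or 5.64%, on 6.40% of the length, and 428801 peaks, or 90.1%, lay farther away. Per Mb, there were 204 peaks inside, 152 within 5 kb outside and 173 farther away. The density inside was 1.18 times that farther away (1.16 to 1.20), and the density within 5 kb outside was 0.881 times that farther away (0.870 to 0.891). Against the sequence next to it, the interior of the regions held 1.34 times as many peaks per Mb (1.32 to 1.37). Most of these peaks were weak, with a median deposited FDR of 0.437, and 14645 peaks, 3.08% of all, had an FDR under 0.05. For those, the order inside against farther turned round, with 446 peaks inside and a density ratio of 0.834 (0.757 to 0.917).

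The change between interior and surroundings fell at the region border. KDM2A peaks stood at 204 per Mb deeper than 2 kb inside, 198 at 1 to 2 kb, 199.6 at 0.5 to 1 kb and 218 in the first 0.5 kb inside. They stood at 119.9 per Mb in the first 0.5 kb outside and 129 at 0.5 to 1 kb. From 1 to 50 kb outside the density ran between 159 and 163 per Mb, and it was 185 per Mb beyond 100 kb. The lowest density anywhere along this axis was thus in the first 1 kb outside a border, and the highest was just inside it. Peaks with FDR under 0.05 had the same low place, at 3.16 and 3.10 per Mb in the first and second 0.5 kb outside against 5.00 just inside. Beyond 100 kb they stood at 6.91 per Mb, above their level deep inside the regions, 5.03. The authors' regions lie on a 200 bp grid, and neighbouring regions were never closer than 800 bp. The borders were themselves set from the H3K36me2 libraries, and KDM2A density moved with the read depth of those libraries, as given below. The part of border calling in the step and the low place was not tested.

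**Figure D1:**
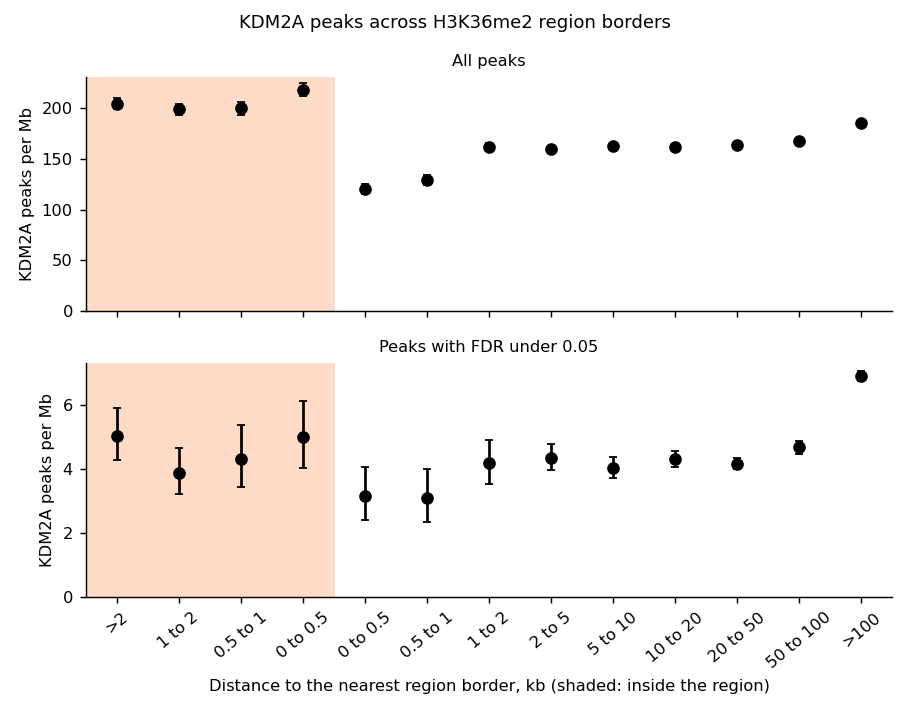
KDM2A peaks per Mb (y axes) by distance of the midpoint from the nearest H3K36me2 border in kb (x axis, inside shaded), with 95% counting intervals, for all peaks (upper panel) and for peaks with FDR under 0.05 (lower panel). For all peaks the density falls from 218 per Mb just inside the border to 119.9 per Mb just outside.

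The classes were alike in median size and height, and they differed in the tail of high peaks. The median Length was 216 bp inside, 211 bp within 5 kb outside and 215 bp farther away, and 1.25%, 1.07% and 1.34% of the peaks reached 600 bp, against 1.32% of all peaks. The median Pileup was 8 in each class. A Pileup of 12 or more was reached by 2.27% of the peaks inside, 2.64% within 5 kb outside and 4.18% farther away, against 4.02% of all peaks. A Pileup of 20 or more was reached by 11, 31 and 1919 peaks. The highest Pileup farther away was 235, at HFM1, a meiotic helicase, with a fold of only 1.63. Inside, it was 157, at chromosome 16, 34591604 to 34591880, with fold 1.26 and FDR 0.437.

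The density ratio therefore depended on Pileup. For peaks of Pileup 5 to 6 and 7 the ratio inside over farther was 1.23, for 8 it was 1.24, for 10 it was 1.14 and for 11 it was 1.02. For Pileup 12 it was 0.864, for 13 to 14 it was 0.706, for 15 to 19 it was 0.320 and for 20 or more it was 0.145 (0.0720 to 0.259). The sequence within 5 kb outside followed the same course, from 0.956 for the lowest class to 0.227 for the highest. Within windows of 1 Mb that course was nearly flat, at 0.965 for the lowest class and 0.890 for the highest. The high peaks were crowded into few places. The 1961 peaks of Pileup 20 or more lay in 445 of 2778 windows of 1 Mb, and the 20 windows with most of them held 37.7%. Windows with 5 or more such peaks held 0.671% of the H3K36me2 length and 3.15% of the measured length. Compared within windows of 1 Mb, the ratio was 1.27 for Pileup 7, 1.14 for Pileup 12, 0.743 for 15 to 19 and 0.607 for 20 or more. For peaks with FDR under 0.05 it was 1.08 within windows, without an interval and on 446 peaks inside, and 0.834 without windows. By fold, it was below 1 within windows at 0.810 for fold 4 to 5 and 0.435 for fold 5 and more. Those classes had 56 and 7 peaks inside and pooled ratios of 0.633 (0.477 to 0.825) and 0.350 (0.140 to 0.726). The classes below fold 4 ran from 1.16 to 1.33 within windows. The part of those few windows in the pooled ratios was not tested beyond this comparison.

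**Figure D2:**
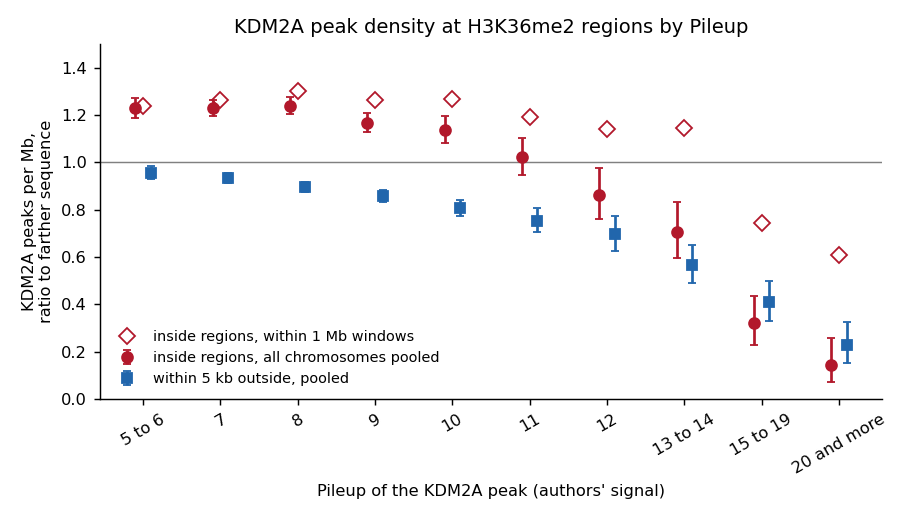
KDM2A peak density over that farther away (y axis) by Pileup class (x axis), inside H3K36me2 regions (circles), within 5 kb outside (squares), both with 95% counting intervals, and inside regions compared within 1 Mb windows (diamonds, no interval). The inside values lie above 1 for a Pileup of 5 to 10 and below 1 from 15 upwards, ending at 0.145 for all chromosomes pooled and 0.607 within windows.

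The 2 lists had opposite distributions over the chromosomes. H3K36me2 regions covered from 0.237% of chromosome 19, the most gene-dense, to 5.04% of chromosome 6. KDM2A peaks were densest on chromosome 19, at 250 per Mb, and sparsest on chromosome 4, at 141 per Mb. Over the 22 chromosomes the covered share and the KDM2A density had a Spearman rho of -0.72, given as a description. The covered share and the gene density of the chromosomes had a rho of -0.74. Within a chromosome the picture for peaks of any FDR was the other way. The density inside was above that farther away on 20 of 22 chromosomes, and on 17 the counting interval lay wholly above 1. The ratio was 1.37 on chromosome 4, 1.34 on chromosomes 13 and 18, 0.936 on chromosome 22 and 0.859 (0.739 to 0.992) on chromosome 20. The sequence within 5 kb outside was below the farther class on all 22 chromosomes, with ratios from 0.852 to 0.989. These chromosome ratios take peaks of any FDR and were not made for peaks with FDR under 0.05. For those, the ratio inside over farther was 0.834 with all chromosomes pooled and 1.08 within windows of 1 Mb.

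**Figure D3:**
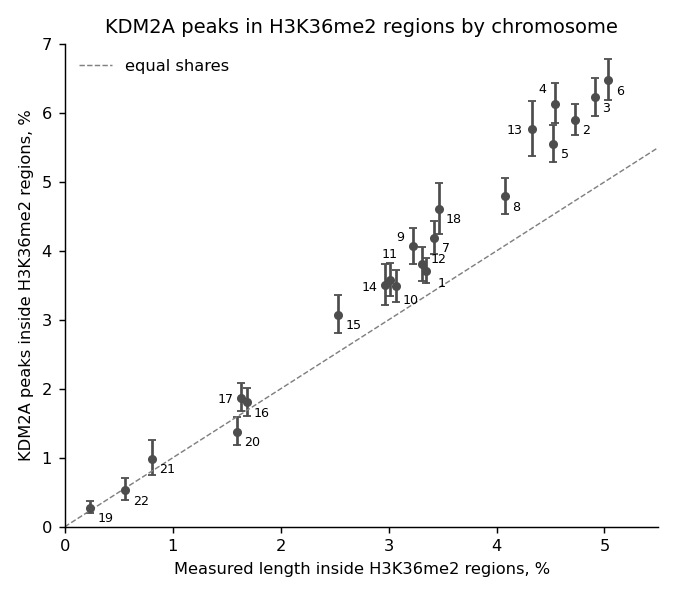
Each numbered point is a chromosome, with the percent of its measured length in H3K36me2 regions on the x axis and the percent of its KDM2A peaks inside them on the y axis, with 95% counting intervals. Most points lie above the dashed line of equal shares, chromosome 20 lies below it, and the covered length runs from 0.237% on chromosome 19 to 5.04% on chromosome 6.

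KDM2A peaks inside H3K36me2 regions lay at gene ends less often than the others. Of the peaks inside, 507, or 2.53%, lay within 2 kb of an end of a protein-coding gene, against 4.36% of those within 5 kb outside and 6.75% of those farther away, with 6.44% over all peaks. Inside, 41.7% lay in gene bodies and 55.7% between genes, and farther away 40.2% and 53.1%. The regions themselves held little gene-end sequence, 2.27% of their length against 4.96% of the length farther away. Per Mb of gene-end sequence the density inside was 0.964 times that farther away, and its interval (0.881 to 1.05) holds 1. The ratio was 1.15 (1.13 to 1.18) in gene bodies and 1.24 (1.21 to 1.26) between genes. For peaks with FDR under 0.05 the ratio between genes was below 1, at 0.837 (0.738 to 0.945). In gene bodies it was 0.864 (0.736 to 1.01), with an interval that holds 1. At gene ends, with 13 peaks inside, the interval ran from 0.424 to 1.38. These ratios are pooled over the chromosomes, and within windows of 1 Mb the ratio for such peaks at all locations was 1.08.

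At gene starts the 2 lists went opposite ways with CpG number. Of 15100 genes with a start in the sequence table, 5132, or 34.0%, had a KDM2A peak within 500 bp of it, 199, or 1.32%, had one with FDR under 0.05, and 163, or 1.08%, had the start in an H3K36me2 region. The share with a KDM2A peak went from 25.2% at starts with 0 to 2 CpG in the 250 bases before them to 39.6% at starts with 26 or more. The share in an H3K36me2 region went from 2.30% to 0.410% over the same classes. Starts with KDM2A alone had a median of 20 CpG, near the 17 of all starts and the 16 of starts with neither, and starts in H3K36me2 alone had a median of 4. The 45 starts with both, ST8SIA4, STEAP4 and PPP1R3A among them, had a median of 10, with an upper quartile of 20. At starts with 0 to 10 CpG, 23 of 114 in H3K36me2 had a KDM2A peak, or 20.2% (13.2% to 28.7%), against 27.3% of the rest. With 11 or more CpG it was 22 of 49, or 44.9% (30.7% to 59.8%), against 37.4%. Both intervals hold the value of the rest, so no difference was detectable at these counts.

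**Figure D4:**
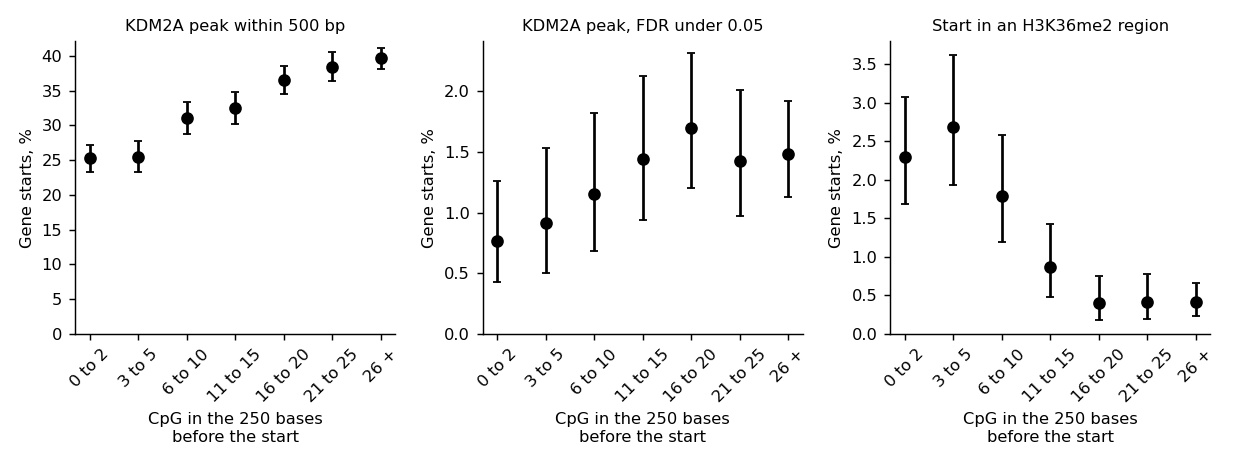
Percent of gene starts (y axes) with a KDM2A peak within 500 bp (left), with one of FDR under 0.05 (middle) and in an H3K36me2 region (right), by the number of CpG in the 250 bases before the start (x axis), with 95% counting intervals. KDM2A goes from 25.2% to 39.6% and H3K36me2 from 2.30% to 0.410% between the lowest and the highest class.

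The 10 KDM2A peaks of highest fold inside regions lay mostly in gene bodies or far from genes. The highest fold inside, 6.31 (Pileup 19, FDR 3.08e-08), was at chromosome 1, 68797549 to 68798106, and the nearest protein-coding gene was DEPDC1, 300745 bp away. TCF12, a basic helix-loop-helix factor, held a peak of fold 5.80 in its body, and TIAM2, an exchange factor for Rac, one of 5.47. ELMOD1 had a peak of 5.40 at a gene end. The peaks of DAB1, the adaptor of the reelin pathway, and SORT1, a sorting receptor for neurotrophins, had folds of 4.78 and 4.75. The peak with GRB14 as its nearest gene, 349398 bp away, had a fold of 5.47, one 10248 bp from NEK1 had 5.08, and one with LOC124906010 as its nearest gene, 1055862 bp away, had 4.93.

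Of the 507 gene-end peaks inside regions, 13 had an FDR under 0.05, a share near the 2.22% of all peaks inside and the 3.08% of all peaks. A KDM2A peak of any FDR at an end was found for 82.8% of protein-coding genes, one inside a region for 412 genes and one inside with FDR under 0.05 for 12 genes. ELMOD1 led with fold 5.40, followed by CELA1, an elastase, with 4.09 and the uncharacterised LOC124900752 with 3.99. CDH20, a cadherin, and MYRFL each had 3.75, and COMMD6, FMO4 and C1QTNF2 had 3.62, 3.54 and 3.51. SNRPC, a protein of the U1 splicing particle, had 3.48, and EZR, which ties the membrane to actin, had 3.37. All of these folds lay below those of the peaks at DEPDC1 and TCF12. Those peaks were picked for their high fold among all peaks inside regions, so this order follows in part from the choice.

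The H3K36me2 regions differed widely in how many KDM2A midpoints they held. None fell in 7377 regions, 38.8% of all (38.1% to 39.5%), 1 fell in 6529, 2 in 3135 and 3 or more in 1976. Regions with none had a median width of 3800 bp, a median fold of 1.66 and a median of 22.6 input reads per kb, and regions with 3 or more had 7800 bp, 1.42 and 25.5. The empty share went from 60.6% of regions under 2 kb to 2.20% of those of 16 kb and more. Per kb the peak number had no such order, at 0.288 under 2 kb, 0.198 at 4 to 8 kb and 0.218 at 16 kb and more. Among regions of 4 to 8 kb, split into 4 equal groups by input reads per kb, the lowest group held 0.158 KDM2A peaks per kb and the highest 0.236, and the empty share went from 44.1% to 27.3%. Grouped by immunoprecipitate reads per kb, the lowest and highest groups held 0.161 and 0.239. By H3K36me2 fold the numbers went from 0.211 in the lowest group to 0.179 in the highest. The KDM2A density thus moved with the H3K36me2 libraries' own read depth, input included, and the part of depth in it was not tested. A KDM2A peak of FDR under 0.05 was held by 438 regions, 2.30% of all.

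Regions dense in KDM2A were few. At least 3 midpoints and 1 per kb were held by 85 regions, 0.447% of all, a rule that itself favours small regions (median width 3000 bp). Of these, 53, or 62.4%, lay between genes, against 53.7% of all regions and 52.7% of the regions with none. This share has no interval, so no difference in location is read from it. The densest, 1.67 per kb, held 3 midpoints at chromosome 7, 136577001 to 136578800, and the nearest gene was CHRM2, a muscarinic acetylcholine receptor, 289852 bp away. A region 106471 bp from RSPO3, a secreted activator of Wnt signalling, held 4 midpoints at 1.54 per kb, at chromosome 6, 127009601 to 127012200. The same density was found 9866 bp from SYNE3, a nesprin of the nuclear envelope, and in MGLL, the lipase that breaks down 2-arachidonoylglycerol. The others of the 10 densest lay in WWOX, ARMC9 and ANKRD44 or had ANKRD28, PIK3R1 and DPP10 as the nearest gene, over 100 kb away. None of these 10 held a KDM2A peak with FDR under 0.05, and 6 of the 85 did.

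Some wide regions held no KDM2A midpoint at all. EFNA5, an ephrin of axon guidance, had an empty region of 16000 bp and fold 1.40, at chromosome 5, 107404601 to 107420600. WIPF3 had one of 16000 bp and fold 1.23. Others of the 10 widest lay in CMSS1, ROR1, a receptor of Wnt signalling, POGLUT1 and FAM186B, or had IGFBP3 and CD96 as the nearest gene. Only 4 of 182 regions of 16 kb or more were empty. At the other end, a region of 20600 bp in EEFSEC, the elongation factor for selenocysteine, held 11 midpoints, at a fold of 1.17.

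**Figure D5:**
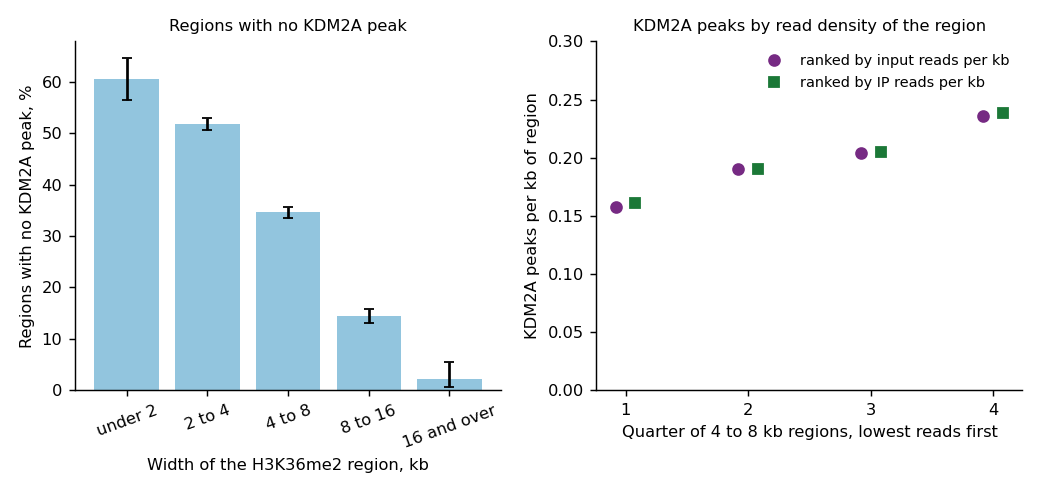
Left, percent of H3K36me2 regions with no KDM2A midpoint (y axis) by region width in kb (x axis), with 95% counting intervals. Right, KDM2A midpoints per kb (y axis) of regions of 4 to 8 kb in 4 groups of rising input or immunoprecipitate reads per kb (x axis). The empty share falls from 60.6% to 2.20%, and by input group the midpoints per kb go from 0.158 to 0.236.

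Among protein-coding genes, 4086 of 18969, or 21.5%, held an H3K36me2 region in the gene or within 2 kb of its ends, and 2864, or 15.1%, held a KDM2A peak inside one. The share moved with gene length. The share with a peak inside a region was 1.49% for genes under 15 kb, 16.9% for genes of 15 to 200 kb and 72.3% for longer ones. Each gene list below is given with its median gene length, and its counts are descriptions without a test. The counts take peaks of any FDR. A peak inside a region with FDR under 0.05 was held by 171 of the 18969 genes, and by 93 of the 1340 genes of 200 kb and more. Among the lists below, 1 MAPK signalling gene and 2 axon guidance and synapse genes held one, and 0 genes of each other list.

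The enzymes that write H3K36 methylation held such peaks in 3 of 8 genes, whose median length was 112 kb. ASH1L, SETD2 (the H3K36 trimethylase) and SMYD2 had 1, 4 and 1 KDM2A peaks inside regions, and NSD1, NSD2 and NSD3 had no region. The ASH1L peak, of fold 3.47 and FDR 0.0644, lay in a region of 4600 bp at chromosome 1, 155542201 to 155546800. Of 9 demethylases, with a median length of 55.4 kb, KDM4C had 5 regions and 3 peaks, all in 1 of them, KDM8 had a region without a KDM2A midpoint, and the rest had no region. The KDM2A gene itself, of 139 kb, held 26 KDM2A peaks, 0 of them with FDR under 0.05, and no H3K36me2 region. Its paralog KDM2B, of 174 kb, held 33 peaks, 1 of them with FDR under 0.05, and no region. Both lie in the 15 to 200 kb class, in which 25.7% of the genes held a region and KDM2A peaks stood at 0.183 per kb.

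Of 14 genes for proteins that read H3K36 methylation or work with such readers, with a median length of 45.5 kb, 4 held a region and 2 held KDM2A inside it. DNMT3A, the reader and DNA methyltransferase, had a region of 16800 bp at chromosome 2, 25323201 to 25340000, with fold 1.26 and 8 KDM2A peaks, the strongest of fold 3.11 and FDR 0.102. PWWP2B had 2 peaks in a region of 6200 bp. The DNMT3B region held none, and neither did the parts of the PWWP2A regions that lie in the gene or within 2 kb of its ends.

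Of 70 MAPK signalling genes, whose median length was 58.4 kb, 26 held a region and 18 a KDM2A peak inside one. MAPK signalling is named in the series title. SOS1, the exchange factor that activates RAS, had 2 such peaks, 1 of them with FDR under 0.05, in a region of 4000 bp at chromosome 2, 39084001 to 39088000, with fold 1.71. RPS6KA2, a kinase downstream of ERK, had 15, MAPK10 (JNK3) had 5 and MAPK9 (JNK2) had 1. Of 27 Polycomb genes, with a median length of 44.8 kb, 9 held a region and 4 a peak inside, and JARID2, a partner of the H3K27 methyltransferase complex, had 4.

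Neural lists split by gene length. Of 28 axon guidance and synapse genes, with a median length of 549 kb, 26 (92.9%) held a region and 22 (78.6%) a KDM2A peak inside one. Of all genes of 200 kb and more, 84.0% held a region and 72.3% a KDM2A peak inside one. SLIT3, a secreted guidance cue, had 16 regions with 29 peaks inside them in all, and NRXN3, a presynaptic adhesion protein, had 14 regions with 14 peaks. SEMA3A had 7 regions with 7 peaks, and its fellow guidance gene ROBO1 had 5 with 4. In each of these 4 genes some regions held no midpoint. Of 37 neurogenesis genes, with a median of 11.3 kb, 9 held a region and 5 a peak inside. EBF1 had 5, ELAVL4 and MAP2 had 3 each, and CUX1 had 2. Of 23 progenitor markers, with a median of 9.35 kb, 5 held a region and 3 a peak inside, which were MSI2 with 11 and FABP7 and ZBTB16 with 1 each. The progenitor genes SOX2, NES, PAX6, SOX1 and HES5 held no region. None of the 20 pluripotency genes, POU5F1, NANOG and LIN28A among them, held one, and none of 57 ribosomal protein genes did. These last lists hold short genes, with median lengths of 14.5 and 5.04 kb. A region was held by 3.46% of all genes under 15 kb and 25.7% of those of 15 to 200 kb. A KDM2A peak was held by 37 of the ribosomal protein genes, or 64.9%, against 87.9% of all genes under 15 kb.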

How the data were processed

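KDM2A and H3K36me2 ChIP-seq peak lists of the control cells were analysed as deposited. Per the submitters' processing notes, hg38, SICER, MACS2 and Bowtie 1.1.2 were used, in roles not given there. Per the file headers, the authors deposited for each peak its length, a fold over input (a ratio), a p-value and FDR, with a Pileup (signal) for KDM2A and a score, not used, for H3K36me2. The H3K36me2 list ends at an FDR of 1e-05 and the KDM2A list has peaks of FDR up to 0.869. KDM2A depth beyond Pileup is unknown. The H3K36me2 starts count from 0 on a 200 bp grid and were written 1-based. A region of median reads (163 in the immunoprecipitate, 99 in the input) has a counting interval of 1.25 to 2.10 around its fold of 1.62.

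Measured length is every 100 kb window with a KDM2A peak. Gene locations came from RefSeq on GRCh38.p14, with ends widened by 2 kb. Left out were 153 protein-coding genes listed under chromosomes 1 to 22 but taken to lie on other sequences. Reads were recovered in 19012 regions from the deposited fold and p-value. Python 3.11.15, pandas 2.3.3 and scipy 1.17.1 were used, and the code was tested on simulated data. Members and gene lists were chosen with earlier results of these data known. Genes were named by rule. These were the 10 strongest KDM2A peaks by fold inside regions, the 10 densest regions, the 10 widest empty regions, up to 10 gene-end peaks with FDR under 0.05, up to 4 genes of each list by fold, and KDM2A and KDM2B. Other genes, among them NSD1, SOX2, POU5F1 and EEFSEC, were fixed markers or were named after their values were seen. Some items that the rule named are not reported here. The alternatives tried were other peak, region, flank and window choices.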

Additional observations from a re-analysis of the deposited data

How the results depend on the processing

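Of 42 alternatives, 35 of them planned, 12 kept the value, 28 moved it and 2 reversed it. A value counted as kept within its counting interval, and the number of dense regions within 1.5 times, which held for 63 in place of 85 with regions of fold above the median. With only peaks of FDR under 0.05, the share inside was 3.05% in place of 4.22%, the density inside over farther reversed from 1.18 to 0.834, the ratio for the 5 kb flank went from 0.881 to 0.746, the gene-end share ratio from 0.374 to 0.440, the median Length difference from 1 to 6 bp, the empty share of regions from 38.8% to 97.7% and the dense regions from 85 to 0. With only the 10% of peaks of highest fold, the density ratio was 1.006 and the empty share 91.1%. With regions of fold above the median, the share inside was 1.42%, the density ratios were 1.16 and 0.850 and the empty share was 49.0%. Any overlap gave 4.36% inside and 37.5% empty, and adding chromosome X gave 4.13%. Windows of 10 kb gave density ratios of 1.13 and 0.866, and a flank of 2 kb gave 0.827. Gene-end windows of 1 kb gave 0.308 and starts alone 0.257. Dense regions numbered 870 at 0.5 midpoints per kb and 8 with at least 5 midpoints. The following were chosen after seeing the data. Within 1 Mb windows the density ratios were 1.26 inside and 0.953 in the flank, 1.08 for FDR under 0.05 and 1.07 for Pileup 12 or more, which without windows reversed to 0.641. The ratio of FDR shares went from 0.707 to 0.853 within windows, and the gene-end ratio per Mb was 0.964. The cause of these changes was not tested. The alternative of a summit in place of the midpoint was not run, since the list used has no summit. No paired analysis was possible because each list rests on 1 library. Depth limits the interpretation of the regions' folds, and with 1 library a list none can be left out.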

Other observations

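The density of both lists differed with gene density. In 1 Mb windows with no protein-coding gene, H3K36me2 covered 2.33% of the length, KDM2A peaks stood at 117 per Mb, and the density inside regions was 1.54 times that farther away. In windows with 1 to 4 genes these values were 4.46%, 159 per Mb and 1.24, and with 20 or more genes they were 0.966%, 227 per Mb and 0.960 (0.873 to 1.05). For peaks with FDR under 0.05 the ratio was below 1 in each of these classes, at 0.654 (0.443 to 0.932) with no gene, 0.970 (0.839 to 1.12) with 1 to 4 genes and 0.448 (0.180 to 0.925) with 20 or more. The most peak-rich regions besides that of EEFSEC included one of 24000 bp in LY96, a co-receptor of Toll-like receptor signalling, with 11 KDM2A midpoints and a fold of 1.25.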
